A study of Mus musculus with 15 samples.

Results

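The genes described here are 9 members of the tripartite motif (TRIM) family that are linked to the interferon response: Trim30a, Trim30d, Trim12a, Trim12c, Trim34a, Trim21, Trim25, Trim14 and Trim56. They were taken by symbol, and all 9 were found among the 34432 genes listed in each of the 2 experiments. The CT26 cell line comes from a colon carcinoma of a BALB/c mouse. In the knockdown experiment, 3 shControl libraries (a control hairpin, no treatment named) were set against 3 shPrmt1 libraries, from stable CT26 cells with a tet-inducible Prmt1 hairpin given doxycycline (DOX) for 3 days. Whether DOX was also added to the shControl cells is not given in the labels. In the inhibitor experiment, wild-type CT26 cells had been given vehicle, MS023 or GSK3368715, the inhibitors at 6 µM for 48 hours, with 3 libraries per group. MS023 and GSK3368715 inhibit type I protein arginine methyltransferases, the enzyme class that holds PRMT1. The 3 libraries of a group are named as biological replicates by the submitters. Each treated group was compared with the controls of its own experiment, and the question was how these antiviral genes moved when PRMT1 was depleted or its activity was blocked.

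Most TRIM proteins have a RING domain, B-boxes and a coiled coil, and many act as E3 ubiquitin ligases, although TRIM14 lacks the RING domain. A subset is transcribed from interferon-stimulated promoters, on which interferon regulatory factors such as IRF1, IRF7 and IRF9 act, and takes part in antiviral defence. TRIM25 acts on the RNA sensor RIG-I, TRIM21 is a cytosolic antibody receptor, TRIM14 and TRIM56 have been tied to the cGAS and STING pathway, and TRIM30a dampens NF-kB signalling. Trim12a, Trim12c and Trim34a belong to the rodent group of genes near Trim5, the family known for restriction of retroviral capsids.

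The genes were largely from a single neighbourhood of the genome. On mm10, the TRIM cluster of chromosome 7 ran from chr7:104218793-104535361, a stretch of 316.6 kb with 11 TRIM genes, 5 of them the members Trim34a, Trim12a, Trim12c, Trim30a and Trim30d. Trim21 was on the same chromosome outside the cluster (chr7:102557921-102565486), beside Trim68. Trim25 was on chromosome 11 (chr11:88999376-89020293), Trim14 on chromosome 4 (chr4:46493781-46536141) and Trim56 on chromosome 5 (chr5:137105644-137116209). All 9 were annotated as protein coding.

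The promoters of these genes (RefSeq sequences on GRCm38.p6, 250 bases before to 50 bases after the start, from the C57BL/6J reference and not from CT26) were searched on both strands for the core of the interferon-stimulated response element, spelled as 2 GAAA half-sites on the same strand with any 2 bases between them. It was found in 6 of the 8 members that had an entry in the promoter table, and in 3.44% of 32851 promoters of the same length. The 6 were the chromosome 7 members. The members were chosen as interferon-linked genes and some of their promoters are near-copies, so the shares are set side by side without a test. No match was found in the windows of Trim25 and Trim56. The matches are shown because they are what the chromosome 7 members share in sequence, each as 30 bases in the direction of the gene with the match in capitals and TTTC in place of GAAA where the match lay on the opposite strand.
Trim30a (chr7:104465210-104465239, minus strand): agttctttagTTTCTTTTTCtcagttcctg
Trim30d (chr7:104507871-104507900, minus strand): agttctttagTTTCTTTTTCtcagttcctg
Trim12a (chr7:104315466-104315495, minus strand): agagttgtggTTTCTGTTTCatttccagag
Trim12c (chr7:104353359-104353388, minus strand): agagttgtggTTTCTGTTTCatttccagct
Trim34a (chr7:104244457-104244486, plus strand): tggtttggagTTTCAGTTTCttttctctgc
Trim21 (chr7:102565450-102565479, minus strand): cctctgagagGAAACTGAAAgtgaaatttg
The first base of the match was at -36 from the start in Trim30a, -41 in Trim30d, -29 in Trim12c, and at 11 in Trim12a, 11 in Trim34a and 14 in Trim21, where a second match at 20 overlapped the first. The start used lay 29 bases from the annotated gene start in Trim12a, 13 in Trim12c and 4 in Trim21. The positions in these genes depend on that start. The 30 bases of Trim30a and Trim30d were the same. Over the whole window these promoters were 93.9% identical across 294 aligned bases, and those of Trim12a and Trim12c were 94.6% identical across 261. Of the other TRIM genes of chromosome 7, Trim5 had the match, at -49, and Trim30c, Trim34b, Trim6 and Trim68 had none. The Trim34b transcript matched Trim34a over 100% of its length, but their windows aligned over only 37 bases at 70.3% identity. Whether the annotated start of Trim34b is the one used was not tested, so its lack of a match is uncertain. The window given for Trim30b, also without a match, lay 11238 bases from the annotated start of the gene and so does not bear on the promoter there. The GAS element, searched as TTCNNNGAA, was found in none of the 8 members and in 8.3% of all promoters. Of the other TRIM genes of chromosome 7 with a window, only Trim30c had it, at -62. A match is a description of the letters and not evidence that a factor bound there.

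The promoters of Trim30a and Trim30d, the members with the largest changes in the knockdown, are shown further over the 120 bases before each start, again with the match in capitals.
Trim30a (chr7:104465194-104465313, minus strand): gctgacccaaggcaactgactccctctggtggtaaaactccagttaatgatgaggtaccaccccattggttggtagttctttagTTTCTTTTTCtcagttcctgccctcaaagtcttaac
Trim30d (chr7:104507850-104507969, minus strand): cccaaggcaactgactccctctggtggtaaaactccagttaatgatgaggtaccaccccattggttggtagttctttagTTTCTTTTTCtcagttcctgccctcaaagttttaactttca
The distances between match and start differed by 5 bases in this pair. A shorter spacing, GAAANGAAA on either strand, was searched after the sequences had been seen, and 3.17% of promoters held it. It was found in Trim30a, Trim30d, Trim12a, Trim12c and Trim34a, where the matches of Trim12a, Trim12c and Trim34a partly overlapped the match with 2 bases between, and also in Trim30c and Trim5. The start used for Trim30c lay 59 bases from the annotated one. The promoter of Trim30c aligned with that of Trim30a over 176 bases at 89.2% identity, and its match lay at -101:
Trim30c (chr7:104400861-104400890, minus strand): aaagtcttaacTTTCATTTCtcttgtggtt

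The libraries held 17284091 to 29233738 reads on genes in the knockdown experiment and 40119305 to 93697833 in the inhibitor experiment. Values below are normalized counts, the gene counts that the authors divided by DESeq2 size factors, and are comparable only within an experiment. Prmt1 itself fell to 12.5% of shControl in shPrmt1 cells, and was at 95% and 99.2% of vehicle with MS023 and GSK3368715. The epithelial markers of the colon line were largely absent: Epcam was at 0 in all 15 libraries, and Cdh1, Vil1 and Krt19 were at or near 0, beside Krt18 and a high level of Vim. The 10 leukocyte markers summed to between 0.207 and 0.753 CPM (a gene's reads scaled to the library's total on genes) in shControl, 0.248 to 0.39 in shPrmt1, 0.381 to 0.595 in vehicle, 0.38 to 0.619 in MS023 and 0.324 to 0.524 in GSK3368715 libraries, with Cd3e at 0 throughout. Vehicle replicate 2 was the lowest vehicle library for 7 of the 9 members, so changes against vehicle are also given without it.

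The 9 genes were chosen for how they stood in the treated groups against their own controls, so no p is given for them in these 3 comparisons, and the limma calls counted here describe them and support nothing. In the knockdown, 8 of the 9 passed the filter of 10 normalized counts in at least 3 libraries, and their median log2 fold change was 1.18 (range -0.10 to 2.55), against a median of -0.0036 over all 11485 genes tested. limma called 6 of the 8 higher at an adjusted p under 0.05 and none lower, beside 7.5% of all genes called higher and 7.17% lower. The shPrmt1 libraries lay above all shControl libraries for 7 of the 8 and below them for none, beside 19.2% and 18.9% of all genes. With MS023, the median of the 9 genes was 0.38 (range 0.07 to 0.93), 6 were called higher and none lower beside 13.7% and 14.1% of all genes, and 7 lay wholly above vehicle and none below, beside 22.4% and 22.1%. With GSK3368715, the median was 0.47 (range 0.13 to 0.84), 6 were called higher and none lower beside 5.16% and 4.47% of all genes, and 7 lay wholly above vehicle and none below, beside 13.7% and 14.1%. The inhibitor comparisons share the vehicle libraries. In RNA from whole cultures, fewer cells of a kind and less RNA per cell cannot be told apart.

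**Figure D1:**
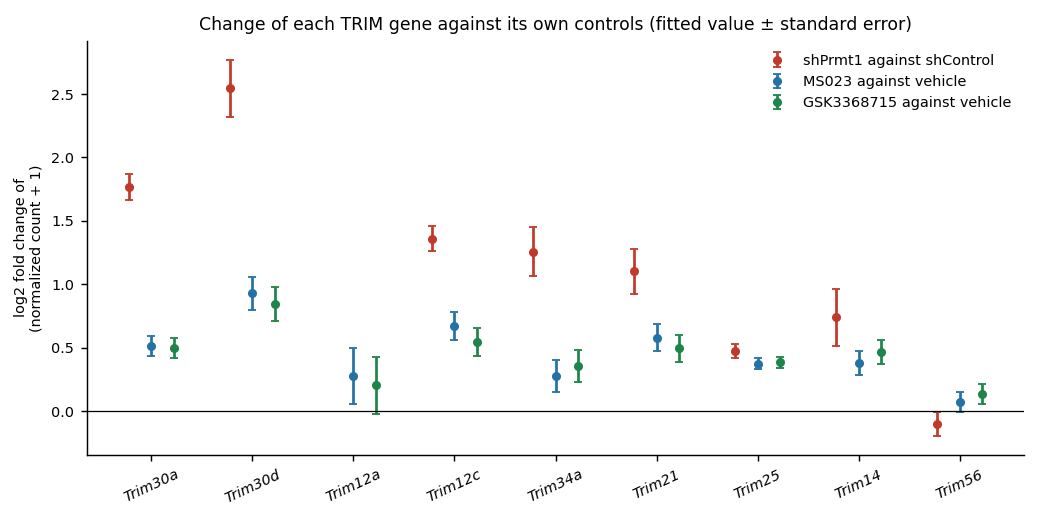
Fitted log2 fold change of the normalized count + 1 for each of the 9 TRIM genes (x axis), with its standard error, for shPrmt1 against shControl (red), MS023 against vehicle (blue) and GSK3368715 against vehicle (green). Trim30d stands highest in all 3 comparisons (2.55, 0.93 and 0.84), Trim56 lies nearest to 0, and Trim12a has no red point because it did not pass the filter in the knockdown.

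Trim30a and Trim30d, neighbours on the minus strand at the end of the cluster, had the largest knockdown changes of the 9. Trim30a stood at 499, 477 and 538 normalized counts with the control hairpin and at 1659, 1983 and 1536 in shPrmt1 libraries. The groups were far apart, with a mean of 505 ± 31.3 (SD, n = 3) against 1726 ± 231, a log2 fold change of 1.77 (standard error 0.10). In the inhibitor experiment Trim30a stood at 10485, 8889.7 and 10593 with vehicle, 14123, 14175 and 14226 with MS023, and 13839.9, 15465 and 12969 with GSK3368715. Every inhibitor library was above every vehicle library, by a log2 fold change of 0.51 with MS023 and 0.50 with GSK3368715, or 0.43 and 0.42 without vehicle replicate 2. Trim30d, a close paralog, had far fewer reads.

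Trim30d had 19.4, 22.3 and 13.3 normalized counts in shControl and 104, 107 and 118 in shPrmt1 libraries, which was 22, 31 and 12 reads against 91, 88 and 116. The groups did not overlap, and the log2 fold change of 2.55 (standard error 0.23) was the largest among the 9 genes. With vehicle, Trim30d stood at 859, 655 and 863, with MS023 at 1393, 1520.3 and 1581, and with GSK3368715 at 1316, 1702 and 1259.6. These groups did not overlap either, with log2 fold changes of 0.93 and 0.84 (standard error 0.13 for both), or 0.80 and 0.71 without vehicle replicate 2. Summed as 1 gene, Trim30a and Trim30d changed by 1.80, 0.54 and 0.53 in the 3 comparisons, since Trim30a held most of the reads. No transcript of the annotation was at least 95% identical to either gene over at least 30% of its length.

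Trim12c and Trim12a are sister genes, of which Trim12c carried nearly all of the reads. Trim12c had 189, 189 and 190.2 normalized counts in shControl and 456, 547 and 464 in shPrmt1 libraries, a log2 fold change of 1.36 (standard error 0.10). It stood at 3555, 2489 and 3280.3 with vehicle, 4824, 4912 and 4929 with MS023, and 4478, 4845 and 4173 with GSK3368715. The treated libraries were above the controls in all 3 comparisons, and the changes against vehicle were 0.67 and 0.55 on the log2 scale, or 0.52 and 0.39 without vehicle replicate 2. Trim12a did not follow at this depth. It had 6, 5 and 3 reads in shControl and 6, 4 and 9 reads in shPrmt1 libraries and was not tested there. In the inhibitor experiment Trim12a had 53.8, 47.9 and 76.0 normalized counts with vehicle, 71.9, 73.3 and 66.8 with MS023, and 80.0, 72.0 and 52.1 with GSK3368715, and the groups overlapped. Its log2 fold changes of 0.28 and 0.20 had a standard error of 0.22, and without vehicle replicate 2 they were 0.14 and 0.07. Of the Trim12a transcript, 63.2% matched Trim12c at 96.1% identity, so the division of reads between them is uncertain. Their sum changed by 0.66 with MS023 and 0.54 with GSK3368715.

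Trim34a lies on the plus strand of the same cluster. It had 51.9, 43.9 and 36.5 normalized counts in shControl and 94.9, 125 and 100 in shPrmt1 libraries, with no overlap, a log2 fold change of 1.26 (standard error 0.19). With vehicle it had 921, 665 and 935, with MS023 988, 1058 and 976, and with GSK3368715 1086, 1144 and 964. The inhibitor libraries were all above vehicle, but by little over its highest library. The log2 fold changes were 0.28 with MS023 and 0.35 with GSK3368715 (standard error 0.12), neither was called by limma, and they dropped to 0.12 and 0.19 without vehicle replicate 2. Trim34a is 98.3% identical to Trim34b over 70.5% of its transcript and shares 609 exon bases with the antisense gene Gm47248, and reads could be divided between them.

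Trim21, the Fc receptor of the cytosol, had 169, 107 and 144 normalized counts in shControl and 295, 267 and 329 in shPrmt1 libraries, which did not overlap and differed by 1.10 on the log2 scale (standard error 0.17). Against vehicle at 1771, 1356 and 1640.1, it had 2473, 2171 and 2442 with MS023 and 2430.1, 2276 and 1993 with GSK3368715. All treated libraries were above all vehicle libraries, by 0.58 and 0.49 on the log2 scale, or 0.47 and 0.38 without vehicle replicate 2. The limma call against vehicle was lost for GSK3368715 without GSK3368715 replicate 1 (0.43) or replicate 2 (0.48).

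Trim25, the ligase of RIG-I, was among the most abundant of the 9 and changed with the least spread. It had 2716, 2577 and 2659 normalized counts in shControl and 3791, 3631 and 3623 in shPrmt1 libraries. In the inhibitor experiment it had 13063, 13372 and 13499.8 with vehicle, 16823, 17431 and 17513 with MS023, and 17115, 17719.6 and 17276 with GSK3368715. No treated library overlapped with its controls, and the log2 fold changes were 0.47, 0.37 and 0.38 (standard errors 0.06, 0.04 and 0.04), or 0.38 and 0.39 against vehicle without replicate 2. Trim25 was the gene whose knockdown change was nearest in size to its inhibitor changes among those called in all 3 comparisons.

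Trim14 and Trim56 have both been tied to the cGAS and STING pathway. Trim14 had 43.1, 47.5 and 49.8 normalized counts in shControl and 60.6, 108 and 74.5 in shPrmt1 libraries. These groups did not overlap, but shPrmt1 replicate 2 was well above the other two, the log2 fold change was 0.74 with a standard error of 0.23, and limma did not call it. Leaving out single libraries gave changes from 0.51 to 0.93, and of these only the one without shPrmt1 replicate 1 (0.93) was called. In the inhibitor experiment Trim14 had 703, 577 and 716 with vehicle, 863, 812 and 915 with MS023 and 879, 930.2 and 937 with GSK3368715, with no overlap and changes of 0.38 and 0.47, or 0.28 and 0.37 without vehicle replicate 2. The MS023 call was lost without MS023 replicate 3 (0.34). Of the 4338 exon bases of Trim14, 1356 overlap Nans on the opposite strand, and whether the authors' quantification used strand is not given in the sources used here.

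Trim56 overlapped with its controls in all 3 comparisons. It had 3052, 2823 and 3062 normalized counts in shControl and 3078, 2399.9 and 2889.7 in shPrmt1 libraries, with a log2 fold change of -0.10 (standard error 0.10). It stood at 11719, 13704 and 14836 with vehicle, 14071, 13552 and 14509 with MS023, and 14548, 13845 and 15651 with GSK3368715. Its log2 fold changes against vehicle were 0.07 and 0.13 (standard error 0.08), or 0.09 and 0.15 without vehicle replicate 2. Its 95% confidence intervals ran from -0.32 to 0.12 in the knockdown, from -0.11 to 0.25 with MS023 and from -0.05 to 0.31 with GSK3368715.

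**Figure D2:**
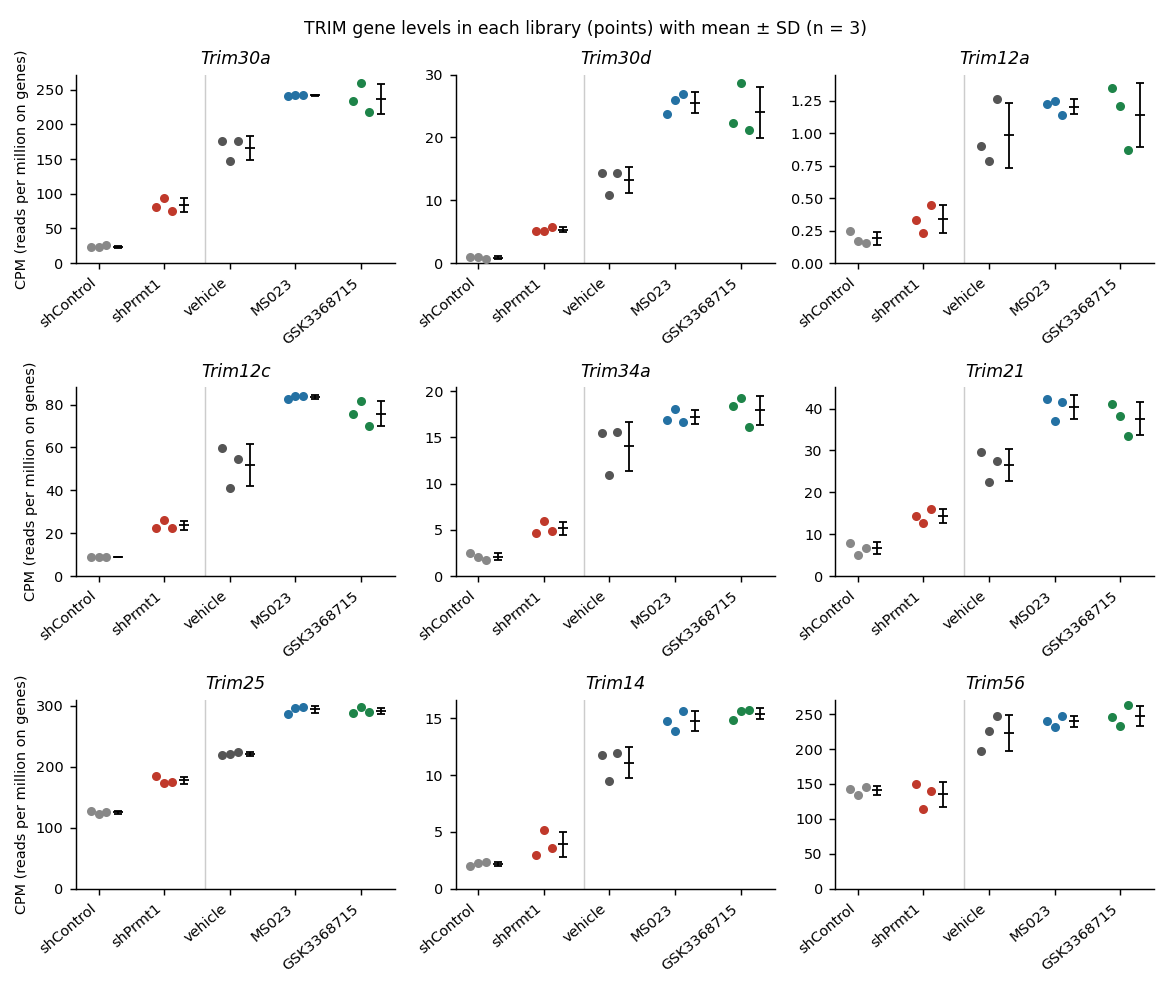
CPM (y axis, from 0) for each TRIM gene in every library of the 5 groups, with the mean ± SD (n = 3) in black and a grey line between the experiments. The shPrmt1 points lie above the shControl points for 7 genes and the inhibitor points above the vehicle points for 7, while Trim56 and Trim12a overlap, and the vehicle points lie above the shControl points for all 9.

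The controls of the experiments themselves differed in these genes. On the CPM scale, vehicle cells held 15.3 times as much Trim30d as shControl cells, 13.2 ± 2.08 against 0.866 ± 0.219 (SD, n = 3). The ratio was 6.98 for Trim30a, 6.72 for Trim34a, 5.79 for Trim12c, 5.14 for Trim12a, 5.01 for Trim14 and 4.01 for Trim21, and it was 1.77 for Trim25 and 1.59 for Trim56. Over the 11470 genes tested in both experiments the median ratio was 1.07, and 6.19% were at 2 or more. The 35 other TRIM genes had a median of 1.23. Vehicle cells also stood above shPrmt1 cells in all 9 genes, by 1.25 times for Trim25 up to 2.92 times for Trim12a, and by 2.00 times for Trim30a. The experiments differed in cells, treatment, depth and normalization, which cannot be told apart, so these ratios are given with no test.

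Levels per kilobase were taken over the longest protein-coding transcript of each gene. In shControl cells the order of the genes was led by Trim25 at 22.4 CPM per kilobase, Trim56 at 15.2 and Trim30a at 6.33, with ranges that did not meet. Trim12c (2.39) and Trim21 (2.36) did not differ beyond their spread. Trim14 (1.399), Trim34a (0.805), Trim30d (0.264) and Trim12a (0.125) followed, each below the range of the one before. The place of Trim14 in both experiments depends on this choice of length, since 1582 bases were used and its exons hold 4338. In vehicle cells Trim30a led at 44.1, with libraries from 38.9 to 46.9 that enclosed Trim25 at 39.7 (39.2 to 40.3). Trim56 (24.1), Trim12c (13.9), Trim21 (9.48) and Trim14 (7.01) came next. The range of Trim34a (5.41) met those of Trim14 above it and Trim30d (4.03) below it, and Trim12a (0.644) was again the lowest.

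GSK3368715 and MS023 were compared directly, at the same dose and time. This contrast was not one of the comparisons that chose the genes. Its libraries did serve in those comparisons, so its results are not independent of the choice. None of the 9 was called by limma, where 0.515% of all 13014 genes tested were called in either direction, 0.315% higher and 0.2% lower with GSK3368715. The unadjusted p ran from 0.296 (Trim12c) to 0.878 (Trim30a), so none was under 0.05, and edgeR and DESeq2 also called 0 of the 9. The libraries of the inhibitors overlapped for all 9 genes, where 11.4% of all genes lay wholly higher and 9.95% wholly lower with GSK3368715. The differences, GSK3368715 minus MS023 on the log2 scale, lay between -0.12 for Trim12c (95% confidence interval -0.37 to 0.12, adjusted p = 0.691 by limma) and 0.09 for Trim14 (-0.12 to 0.29, adjusted p = 0.742 by limma), with a median of -0.01. The interval was narrowest for Trim25 (-0.09 to 0.11) and for Trim30a (-0.19 to 0.16), and widest for Trim12a (-0.57 to 0.42). For Trim30d it ran from -0.37 to 0.21, for Trim34a from -0.20 to 0.35, for Trim21 from -0.32 to 0.15 and for Trim56 from -0.12 to 0.24. With 3 libraries per group, differences of any size within these intervals remain compatible with the data.

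**Figure D3:**
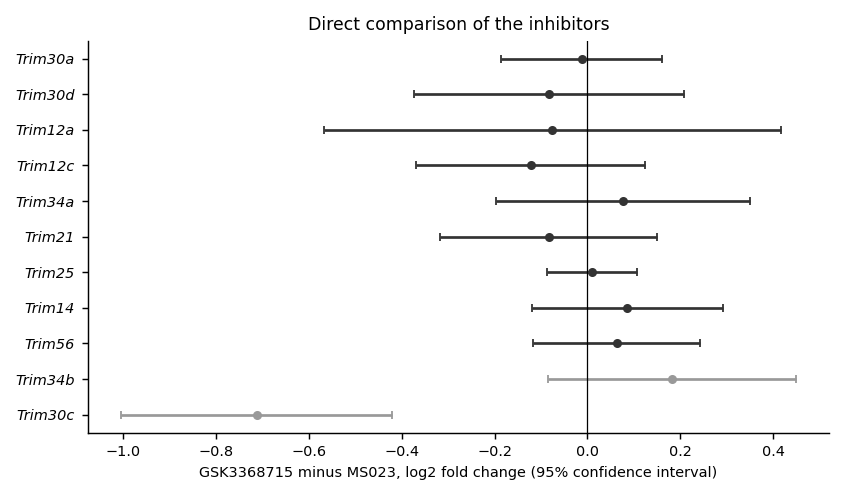
Difference between the inhibitors, GSK3368715 minus MS023, on the log2 scale with its 95% confidence interval (x axis) for the 9 TRIM genes (black) and for Trim34b and Trim30c (grey). The 9 black intervals include 0, and Trim30c lies at -0.71.

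Among the other genes of the chromosome 7 cluster, Trim30c rose in all 3 comparisons against controls. Trim30c had 2, 4 and 1 reads in shControl and 10, 14 and 15 reads in shPrmt1 libraries, a log2 fold change of 2.45 (adjusted p = 0.0115 by limma) on few reads. It stood at 47.7, 47.0 and 50.7 normalized counts with vehicle, 211, 231 and 192 with MS023, and 134, 127 and 123 with GSK3368715. Each of these groups was separate from the other two, and the changes against vehicle were 2.10 and 1.38 (adjusted p = 1.26e-05 and 4.92e-04 by limma). The inhibitors differed by -0.71 (95% confidence interval -1.003 to -0.42, adjusted p = 0.0478 by limma), lower with GSK3368715. This call rested close to the threshold. It was lost without vehicle replicate 3, without any of the 3 MS023 libraries or without any of the 3 GSK3368715 libraries, at differences from -0.78 to -0.65 and adjusted p from 0.0833 to 0.228. The call ended as well with no filter (adjusted p = 0.122 by limma), a minimum of 50 normalized counts (0.0543) and libraries rescaled to the same upper quartile (0.0528) or total (0.0504).

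Trim34b, the near copy of Trim34a, was higher in shPrmt1 cells by 0.98 (adjusted p = 0.0197) and with GSK3368715 by 0.45 (adjusted p = 0.0419), and its change with MS023 of 0.27 was not called (adjusted p = 0.126, all by limma). The knockdown call was lost without shControl replicate 2 or 3 or without shPrmt1 replicate 1 (adjusted p 0.0578 to 0.0776). The GSK3368715 call was lost without any of 8 libraries, all but vehicle replicate 1 (adjusted p 0.0567 to 0.123). Trim6 and Trim68 were tested and not called in any comparison: Trim6 changed by 0.09, -0.14 and -0.04, and Trim68 by -0.01, -0.16 and -0.29. Trim30b had 0 to 2 reads per knockdown library and overlapping inhibitor groups. Trim5, whose promoter window aligned with that of Trim12a over 241 bases at 100% identity, had at most 6 reads in any library and was not tested, and the pseudogene Trim30e-ps1 was listed at 0 in all.

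**Figure D4:**
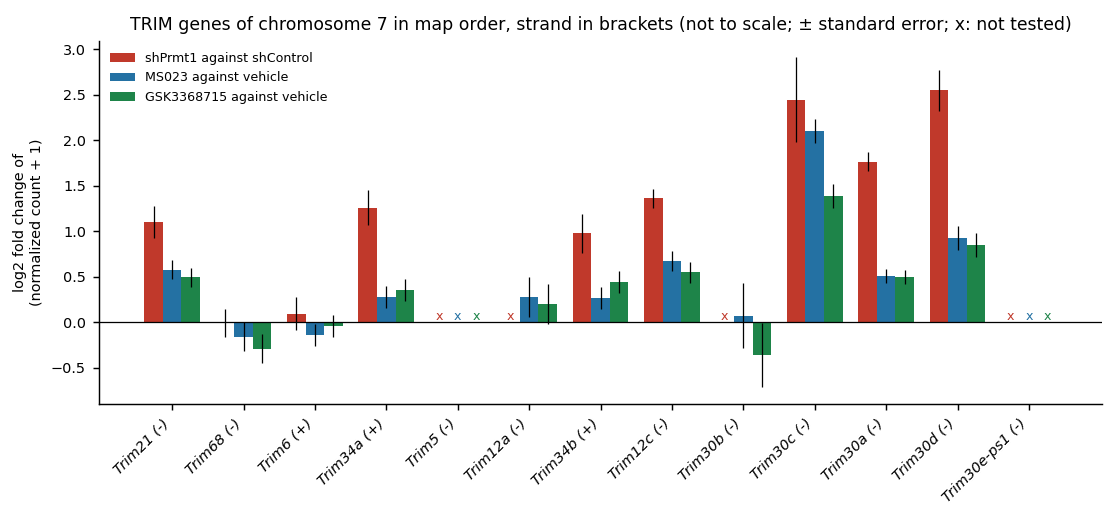
TRIM genes of chromosome 7 in map order (x axis, not to scale, strand in brackets) with the fitted log2 fold change and standard error in the 3 comparisons against controls, and x where a gene was not tested. In the knockdown, tall bars stand at Trim21, Trim34a, Trim34b, Trim12c, Trim30c, Trim30a and Trim30d. Trim68 and Trim6 have low knockdown bars, and Trim5, Trim12a, Trim30b and Trim30e-ps1 were not tested there. With MS023, the bars of Trim34a and Trim12a are both at 0.28.

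Over the rest of the TRIM family, 64 genes were listed, of which 35 were tested in the knockdown and 40 in the inhibitor experiment. In the knockdown 4 were called higher and 2 lower (17.1%, beside 14.7% of all genes), with a median log2 fold change of 0.04. With MS023, 3 were called higher and 3 lower (15%, beside 27.9%), and with GSK3368715 3 higher and 1 lower (10%, beside 9.64%), at medians of -0.05 and -0.08. The shares lay near or under the background. This list is what was left once the members, chosen on these comparisons, had been taken out. Its shares are therefore not independent of that choice. Beside Trim30c, 2 genes were called in all 3 comparisons. Trim44, a family member without a RING domain, rose by 0.56, 0.26 and 0.20 (adjusted p = 0.00194, 0.00216 and 0.0215 by limma). Trim45 fell by 0.50, 0.61 and 0.44 (adjusted p = 0.0302, 0.00171 and 0.0227 by limma).

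The smaller of these calls depended on single libraries. With GSK3368715, Trim44 lost its call without vehicle replicate 3 or GSK3368715 replicate 1 or 3 (adjusted p 0.0673 to 0.0712 by limma). Trim45 lost its knockdown call without any 1 of the shControl libraries or shPrmt1 replicate 1 (0.0735 to 0.131), and its GSK3368715 call without vehicle replicate 1 or 3 or any GSK3368715 library (0.0507 to 0.0712). The number of other TRIM genes called ranged from 2 to 9 in the knockdown, from 4 to 7 with MS023 and from 1 to 5 with GSK3368715 when single libraries were left out.

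**Figure D5:**
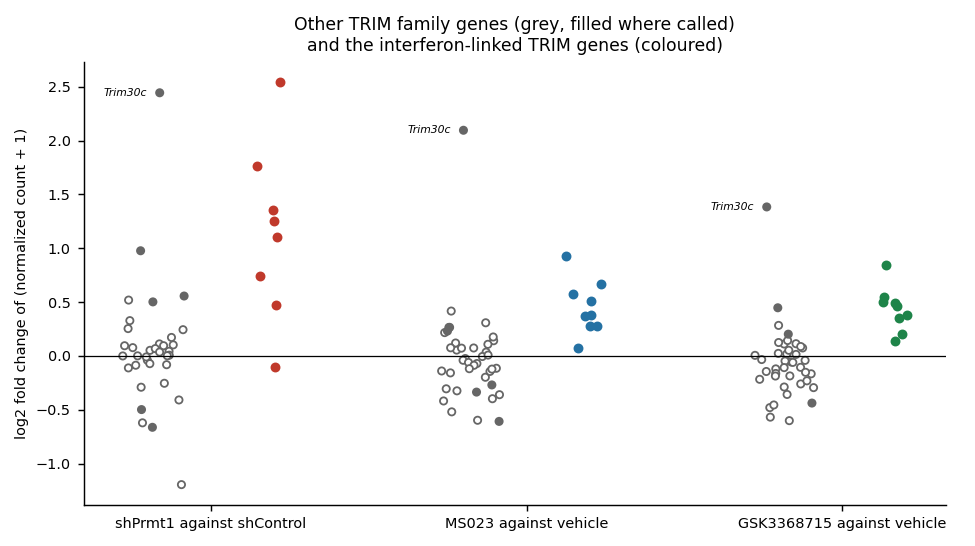
Log2 fold change of the normalized count + 1 (y axis) in the 3 comparisons for the other TRIM family genes tested (grey, filled where called by limma) and for the interferon-linked TRIM genes (coloured). Most grey points lie around 0, Trim30c stands at 2.45, 2.10 and 1.38, and the coloured points, which were chosen on these comparisons, lie above 0 except Trim56 at -0.10 in the knockdown.

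The mRNAs of 20 partners of these ligases (RNA and DNA sensors, adaptors, ubiquitin enzymes and ubiquitin-like proteins) were all tested. In the knockdown 2 were called higher and 1 lower (15%, beside 14.7% of all genes), with MS023 3 and 2 (25%, beside 27.9%), and with GSK3368715 3 and 1 (20%, beside 9.64%). Isg15, the ubiquitin-like modifier whose E3 ligases include TRIM25, rose by 0.99, 0.61 and 0.51 (adjusted p = 1.90e-04, 0.00311 and 0.02 by limma). Ddx58, which encodes RIG-I, rose by 0.88, 0.17 and 0.28 (adjusted p = 0.0011, 0.0415 and 0.0128 by limma). Mavs, its mitochondrial adaptor, fell by 0.35, 0.28 and 0.27 (adjusted p = 0.0137, 0.00457 and 0.0157 by limma). Sting1, the adaptor of cGAS, rose with MS023 by 0.36 and with GSK3368715 by 0.24 (adjusted p = 0.00195 and 0.0355), and its knockdown change of 0.29 was not called (adjusted p = 0.131, all by limma).

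Several of these calls were also lost when 1 library was left out. The MS023 call of Ddx58 was lost without vehicle replicate 2, any MS023 library, or GSK3368715 replicate 1 or 3 (0.12 to 0.18 on the log2 scale, adjusted p 0.0548 to 0.132 by limma). For Isg15 with GSK3368715 it was lost without vehicle replicate 3 or GSK3368715 replicate 2 or 3 (adjusted p 0.0508 to 0.0748). For Sting1 with GSK3368715 it was lost without vehicle, MS023 or GSK3368715 replicate 1 or 3 (0.0536 to 0.119), and in the knockdown Sting1 was called without shPrmt1 replicate 2 (0.42, adjusted p = 0.00427). For Mavs it was lost in the knockdown without shControl replicate 1 or 3 or shPrmt1 replicate 3 (0.0503 to 0.0747) and with GSK3368715 without vehicle replicate 3 (0.06).

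Of 5 interferon response factors tested, 3 were called higher in each comparison and none lower, beside 7.5%, 13.7% and 5.16% of all genes called higher. This list, like that of the partners, was chosen with earlier results of these data known, so its counts describe it and support nothing. Irf7, the factor that amplifies the type I interferon response, rose by 1.80, 0.93 and 0.68 (adjusted p = 5.07e-05, 0.00113 and 0.0166 by limma). Stat2 rose by 0.60, 0.66 and 0.59 (adjusted p = 0.00342, 3.70e-04 and 0.00294 by limma). Irf1 rose with the inhibitors by 0.48 and 0.50 (adjusted p = 0.00126 and 0.00409) and not in the knockdown at 0.14 (adjusted p = 0.246, all by limma). Irf9 rose in the knockdown by 0.64 (adjusted p = 9.55e-04) and was not called with MS023 at 0.27 (adjusted p = 0.0606) or GSK3368715 at 0.26 (adjusted p = 0.107, all by limma). Irf3, which is activated by phosphorylation, was not called in any comparison. The call of Irf7 with GSK3368715 was lost without vehicle replicate 3 or GSK3368715 replicate 2 (0.68 and 0.58, adjusted p 0.0546 and 0.0572 by limma).

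The genes whose 3 log2 fold changes lay nearest to those of Trim30a, by Euclidean distance over 11463 genes, were Akr1c14, Irgm2, Usp18, Dnhd1 and Serpinb8, at distances of 0.13 to 0.19. Irgm2 is an immunity-related GTPase and Usp18 removes ISG15 from proteins. Akr1c14 belongs to the aldo-keto reductases, Serpinb8 to the serpin protease inhibitors and Dnhd1 to the dynein heavy chain family. Over the 5 genes the log2 fold changes ran from 1.63 to 1.67 in the knockdown, from 0.46 to 0.63 with MS023 and from 0.41 to 0.60 with GSK3368715.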

How the data were processed

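RNA-sequencing was available for 15 CT26 libraries. The authors prepared mRNA libraries, sequenced paired-end reads, quantified them with Salmon 1.4.0 on mm10 (per the submitters' processing notes) and used DESeq2. The deposited signal per gene is a count that the authors had scaled by the size factor of its library from DESeq2. Whole reads were recovered from them for 100% of the values (tolerance 0.01). All columns of values were mapped to libraries, and no fold changes or p-values of the authors were used. The members and all lists were chosen with earlier results of these data known.

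Genes reaching 10 normalized counts in 3 or more libraries were fitted as log2(normalized count + 1) with limma 3.58.1 in R 4.3.3 (eBayes with a trend, two-sided, Benjamini-Hochberg over all genes tested, threshold 0.05). This scale understates changes of low genes. The knockdown libraries and the 9 inhibitor libraries were fitted separately, without replicate pairing. Named beside the members were the other TRIM genes of chromosome 7, other TRIM genes, partners and interferon factors called in at least 2 of 3 comparisons in the same direction, and the 5 genes nearest to Trim30a. The alternatives tried were other pseudocounts (0.5 and 5), another filter (none, or 50), and libraries rescaled to an equal upper quartile or an equal total. Others were eBayes with no trend, a replicate block, only the groups compared, edgeR 4.0.16 and DESeq2 1.42.0 on recovered reads, and each library left out. Paralog pairs were also summed: Trim12a with Trim12c, Trim34a with Trim34b, and Trim30a with Trim30d. The last pair was not found as copies in the search below. One gene of the list of interferon factors is not reported here. The fits were tested on simulated counts. Copies were searched in the GENCODE transcripts of GRCm38 with blastn 2.17.0 at 95% identity over 30% of the transcript. No fold was given at 3 reads or fewer, a floor for counting error only. No libraries of a group agreed within counting noise (chi-square per degree of freedom 4.38 to 79.9).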

Additional observations from a re-analysis of the deposited data

Results flagged for a closer look

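The response of Trim30c differed between the inhibitors: its change was 2.10 on the log2 scale with MS023 and 1.38 with GSK3368715, and the direct contrast was -0.71 (adjusted p = 0.0478 by limma). Its lowest MS023 library (192 normalized counts) was above its highest GSK3368715 library (134), and the same holds of 9.95% of all genes tested. It was the only one called in this contrast among the 9 members, the other TRIM genes of chromosome 7, and the TRIM genes, partners and factors named by rule. The genes nearest to Trim30a were not looked up in this contrast. That call was lost without any 1 of 7 libraries (adjusted p 0.0833 to 0.228 by limma). Other settings also ended it, among them no filter (0.122) and the replicate block (0.125). No group had the 4 libraries that a search for outlying samples needs.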

How the results depend on the processing

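All 9 members stayed uncalled between the inhibitors under every alternative run, with 0 called throughout. The members' median change stayed positive: leaving out single libraries gave 1.09 to 1.30 in the knockdown, 0.36 to 0.47 with MS023 and 0.38 to 0.52 with GSK3368715. Trim12a, with few reads in the knockdown, had a value there only with no filter. Trim14 in the knockdown was called by DESeq2 (0.79) and with the replicate block (0.74).

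Small differences between the inhibitors changed sign. Trim25 was at -0.0104 with libraries rescaled to the same total. Leaving out single libraries gave -0.0086 to 0.0204 for Trim25, -0.0813 to 0.0456 for Trim30a, -0.2165 to 0.0003 for Trim30d and -0.2027 to 0.1029 for Trim12a, and the last 3 were above 0 without GSK3368715 replicate 3. Against controls, uncalled changes that turned were those of Trim68 in the knockdown (0.0226 with the same total, 0.007 by edgeR, 0.0076 by DESeq2, -0.1 to 0.111 without single libraries) and, without single libraries, Trim6 (-0.0697 to 0.2536 in the knockdown, -0.1716 to 0.0388 with GSK3368715) and Trim30b with MS023 (-0.1269 to 0.3423). The cause was not tested.

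Counts of called genes moved more. Leaving out single libraries gave 652 to 2472 in the knockdown, 2409 to 3726 with MS023, 586 to 1274 with GSK3368715 and 2 to 114 between the inhibitors. With only the groups compared, 597 were called with GSK3368715, 1 of them among the other TRIM genes and 4 among partners and interferon factors. Between the inhibitors 38 were called with no filter, 8 without the trend and 377 by DESeq2. Rescaling to the same total gave 1082 higher and 666 lower in the knockdown (861 and 823 before), 2200 and 1509 with MS023 (1784 and 1841 before). The labels do not say that the replicate numbers pair the libraries. Correlations of same-numbered libraries ran from -0.10 to 0.11 in the inhibitor experiment and from 0.06 to 0.12 in the knockdown, where each was above those of all differently numbered libraries (-0.09 to 0.03), a hint from the data and not the design. With the replicate block, 2671 genes were called in the knockdown, 3219 with MS023, 860 with GSK3368715 and 4 between the inhibitors, and 10 other TRIM genes in the knockdown and 2 with GSK3368715. Of the calls named singly, only the groups compared ended those of Trim34b, Trim44, Trim45, Isg15, Sting1 and Irf7 with GSK3368715 and of Ddx58 with MS023 (adjusted p 0.0527 to 0.102 by limma). No trend ended those of Trim34b, Isg15, Irf7 and Ddx58, no filter those of Trim34b with GSK3368715, Trim45 in the knockdown and Ddx58 with MS023, and the replicate block those of Trim34b, Trim45 and Sting1 with GSK3368715, Ddx58 with MS023 and Trim30c between the inhibitors (adjusted p 0.0523 to 0.125 by limma). Of the partners and factors, 5 to 9, 7 to 10 and 3 to 7 were called without single libraries in the 3 comparisons.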
